A study of Mus musculus with 36 samples.

Results

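The 8 genes described here are the core of the program that makes fat cells: the regulators Pparg, Cebpa, Cebpb and Cebpd and the lipid genes Fabp4, Lpl, Cd36 and Adipoq. They were chosen by gene symbol, with earlier results of these data known, and all 8 were found among 24284 genes with a deposited FPKM value and among 22456 genes present in both kinds of deposited table. Each was measured in 12 RNA libraries.

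In preadipocytes, C/EBPβ and C/EBPδ, the products of Cebpb and Cebpd, appear early after a differentiation stimulus and act on the genes of PPARγ (Pparg) and C/EBPα (Cebpa), which then maintain each other. PPARγ is the nuclear receptor that fat cell differentiation requires; paired with RXR it acts on genes for fatty acid handling. Fabp4 (fatty acid binding protein of adipocytes), Lpl (lipoprotein lipase), Cd36 (fatty acid uptake) and Adipoq (the hormone adiponectin) are among the genes it is known to activate. MLL3 and MLL4 are methyltransferases that place mono-methylation of histone H3 lysine 4 at enhancers, and MLL4 is known to be needed for adipogenesis. None of the cells of this study was given an adipogenic stimulus according to the labels.

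All cells lacked MLL3 (gene Kmt2c). The cells called f/f were MLL3-/-;MLL4flox/flox and kept a conditional MLL4 allele (gene Kmt2d), and the cells called DKO were MLL3-/-;MLL4-/-, so that no group had intact MLL3. The stages were immortalized mouse embryonic fibroblasts (MEF) grown in serum, the same kind of fibroblasts 20 days into reprogramming by lentiviral Oct4, Sox, Klf4 and c-MYC in stem cell medium (day 20), embryonic stem cells (ESC) grown with LIF over irradiated fibroblasts as feeders, and embryoid bodies (EB in the plots) formed from them during 4 days without LIF. MEF and day 20 had 1 library per genotype, and ESC and bodies had 2, so that only ESC and bodies could be tested; the labels do not say whether replicates came from separate cultures or how many clones were used, and a p-value here covers only variation among the deposited libraries, possibly technical.

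Depth lay between 11366199 and 38264157 reads. Kmt2d stood at 14.4 FPKM in f/f MEF and at 23.5 in the MEF library labelled DKO, and at 12.9 and 24.8 at day 20, so its level over the whole transcript was not lower in these 2 libraries labelled DKO; a value over the whole transcript does not isolate a deleted part. In ESC it was lower in DKO in both batches, at 8.89 against 13.5 RPKM and 10.7 against 18.7 FPKM, as it was in bodies, at 14.3 against 16.4 and 10.1 against 15.4. Fibroblast markers were measured in MEF and day 20 libraries at a summed 7888 to 17792 FPKM over 20 genes, with at least 19 of 20 at 1 FPKM or more. The day 20 f/f library held Pou5f1 at 19.8 and Sox2 at 9.36 FPKM against 0.118 and 0.243 in the day 20 library labelled DKO; the reads do not tell the delivered factors from the cells' own.

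The sequence before a start of Pparg is shown because Pparg was the regulator furthest below its f/f level in the libraries labelled DKO, and the sequence before Cebpa is shown for contrast. RefSeq's table for GRCm38.p6 held starts for 5 of the 8 genes, 7 starts in all and 3 of them for Pparg; Cebpd, Fabp4 and Lpl had no entry. Each window is the 250 bases before the first transcribed base, read 5′ to 3′ on the gene's strand. Capitals mark matches to TTGCNNAA or to AGGTCA, the single site of nuclear receptors, each on either strand. TTGCNNAA is the C/EBP palindrome TTGCGCAA with the 2 bases after TTGC left free. This pattern keeps TTGC whole and only the last 2 bases of GCAA. The Pparg start furthest downstream, known to give the isoform enriched in fat, lies after chr6:115421816-115422065 (plus strand), and the Cebpa start lies after chr7:35119043-35119292 (plus strand).
Pparg, start furthest downstream: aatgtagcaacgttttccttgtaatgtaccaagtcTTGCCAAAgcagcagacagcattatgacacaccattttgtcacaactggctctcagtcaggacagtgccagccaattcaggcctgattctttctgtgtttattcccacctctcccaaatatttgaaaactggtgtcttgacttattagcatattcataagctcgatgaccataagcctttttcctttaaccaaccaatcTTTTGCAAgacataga
Cebpa: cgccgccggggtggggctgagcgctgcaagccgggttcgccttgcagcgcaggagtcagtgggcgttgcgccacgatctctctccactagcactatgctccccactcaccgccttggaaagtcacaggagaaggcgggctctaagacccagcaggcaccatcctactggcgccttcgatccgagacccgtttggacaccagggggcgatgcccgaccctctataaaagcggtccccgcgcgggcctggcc
The Pparg window held 2 matches to TTGCNNAA, beginning 215 and 16 bases before the start. Of 32851 starts in the table, 9.56% had at least 1 match in a window of this length and 0.572% had 2 or more. The window before the Cebpa start held no match to TTGCNNAA or AGGTCA, and neither did the windows before Cebpb and Adipoq. Both upstream starts of Pparg, and Cd36, had no match to TTGCNNAA and 1 match to AGGTCA each, which 14.0% of all starts had. G and C made up 40.8% of the Pparg window shown and 66.4% of the Cebpa window. The shares over all starts were not matched for G and C content. None of the 7 windows matched AGGTCANAGGTCA, the direct repeat bound by PPARγ with RXR, which 0.0335% of all starts held. These are matches of letters; they show neither binding nor use of a start, and the FPKM values do not separate the starts of Pparg.

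**Figure D1:**
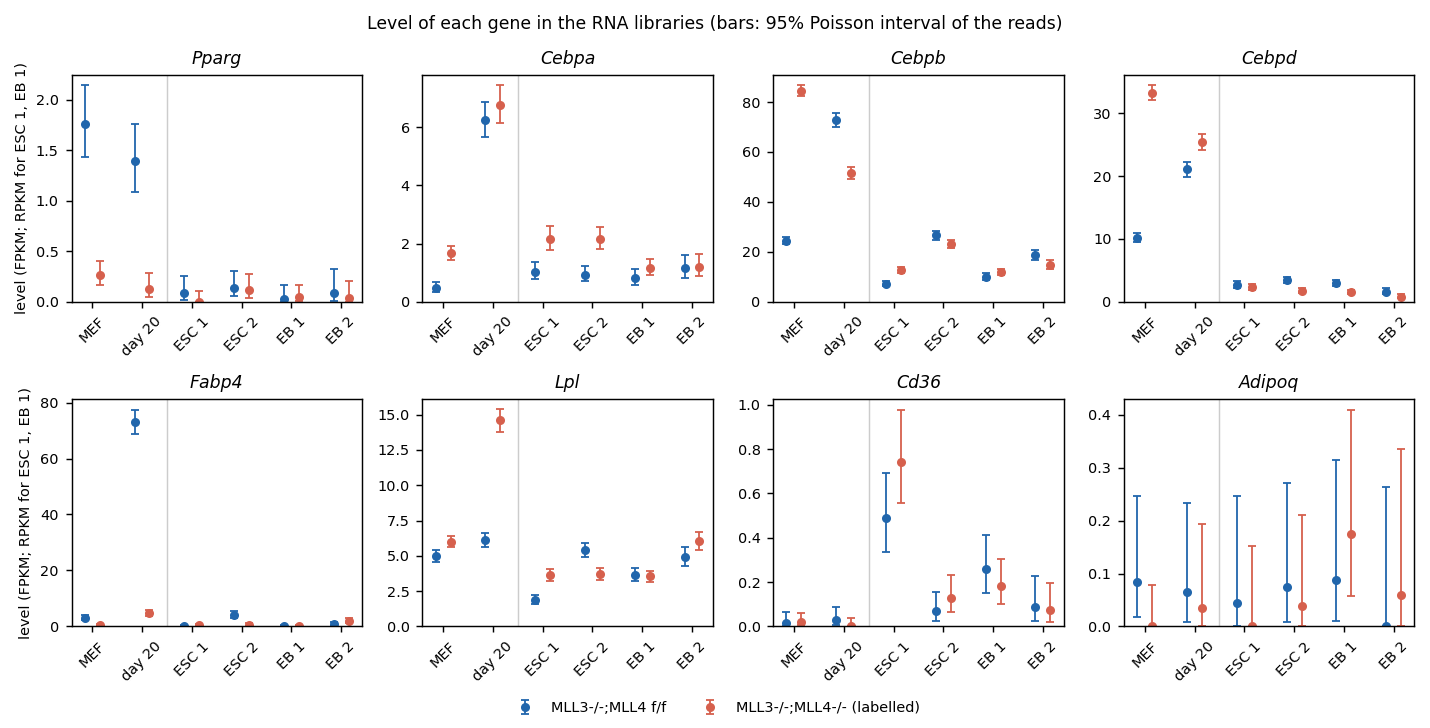
Level of each of the 8 genes (vertical axis, FPKM, or RPKM for the first batch, ESC 1 and EB 1) in each of the 12 libraries, f/f in blue and DKO as labelled in red, with bars for the 95% Poisson interval of the reads; EB is embryoid bodies. Pparg is above 1 only in the f/f libraries of MEF (1.76) and day 20 (1.39), and Fabp4 reaches 73.0 in f/f cells at day 20.

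Between genotypes in MEF, the regulators differed in opposite directions in these libraries. Pparg and its target Fabp4 were lower in the library labelled DKO, while Cebpb and Cebpd, the early C/EBP factors, were higher. Pparg stood at 1.76 FPKM (101 reads) in f/f MEF and at 0.263 FPKM (20 reads) in the library labelled DKO. That was 6.68-fold lower, with a 95% interval of 4.11 to 11.4 that covers counting error only, as do all intervals of folds and levels in MEF and day 20. Fabp4 stood at 3.13 FPKM (58 reads) and 0.367 FPKM (9 reads), 8.53-fold lower (4.20 to 19.6). Both genes had few reads in the library labelled DKO. The counting intervals of their levels did not overlap between the 2 libraries. Neither did those of Cebpa, Cebpb, Cebpd or Lpl, the last at a difference of only 1.20-fold. The share of all genes without such overlap was not counted. In bulk RNA, fewer cells of a type and less RNA per cell cannot be told apart.

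Cebpb stood at 24.4 FPKM (1073 reads) in f/f MEF and at 84.6 FPKM (4914 reads) in the library labelled DKO, 3.46-fold higher (3.24 to 3.70). Cebpd stood at 10.2 FPKM (667 reads) and 33.3 FPKM (2880 reads), 3.26-fold higher (3.0 to 3.56). Cebpa, which follows them in the cascade, stood at 0.485 FPKM (37 reads) and 1.66 FPKM (168 reads), 3.43-fold higher (2.39 to 5.04). All 3 C/EBP genes were therefore at more than 3 times their f/f level, although Cebpa remained far below Cebpb and Cebpd per length. Lpl, the lipase that frees fatty acids from lipoproteins, differed little, at 4.96 and 5.98 FPKM (1.20-fold higher, 1.08 to 1.34).

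Cd36 and Adipoq were at or near 0 in MEF and at day 20. Cd36 had 2, 3, 3 and 0 reads in f/f MEF, MEF labelled DKO, f/f day 20 and day 20 labelled DKO, and Adipoq had 3, 0, 2 and 1. All 8 values were at or under 3 reads, the number a count of 0 allows, and no fold was computed. These late products of a fat cell were not detectable above that limit at this depth.

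Measured on log2(FPKM + 1), a scale that understates changes of low genes, 2 of the 6 genes that reached 1 FPKM in either MEF library were at least 2-fold higher (Cebpb 1.75, Cebpd 1.61) and 2 were at least 2-fold lower (Pparg -1.13, Fabp4 -1.59). Of all 12332 genes compared, 3.97% were at least 2-fold higher and 5.67% at least 2-fold lower. Cebpa was just outside, at 0.84. Pparg and Fabp4 reached 1 FPKM only in the f/f library and Cebpa only in the library labelled DKO, so for them the count of genes compared depended on the difference itself. With a pseudocount of 5, Pparg stood at -0.36 and Fabp4 at -0.60. With 1 library per genotype there is no test, and culture and genotype cannot be told apart.

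At day 20 the largest difference between genotypes among the 8 genes was that of Fabp4. It stood at 73.0 FPKM (1170 reads) in f/f cells and at 4.73 FPKM (71 reads) in the library labelled DKO, 15.4-fold lower (12.1 to 19.9). On the log2 scale that was -3.69, the 107th lowest of 12943 genes. Pparg stood at 1.39 FPKM (69 reads) and 0.129 FPKM (6 reads), 10.8-fold lower (4.70 to 30.3). The receptor and its target were thus low together in the library labelled DKO at both stages.

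The other genes did not share one direction at day 20. Lpl stood at 6.10 FPKM (618 reads) in f/f cells and 14.6 FPKM (1382 reads) in the library labelled DKO, 2.39-fold higher (2.17 to 2.63), opposite to Fabp4 although both are known PPARγ targets. Cebpa stood at 6.24 and 6.78 FPKM, a difference within counting error (1.09-fold higher, 0.946 to 1.25). Cebpb was 1.41-fold lower (1.33 to 1.50), at 51.6 against 72.8 FPKM. Cebpd was 1.21-fold higher (1.11 to 1.30), at 25.4 against 21.1 FPKM.

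Of the 6 genes compared at day 20, 1 was at least 2-fold higher (Lpl, 1.13 on the log2 scale) and 2 at least 2-fold lower (Fabp4, and Pparg at -1.08), where 8.51% of all 12943 genes were higher and 12.2% lower. Pparg again reached 1 FPKM only in the f/f library. With quantile scaling Pparg stood at -0.80, short of 2-fold.

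**Figure D2:**
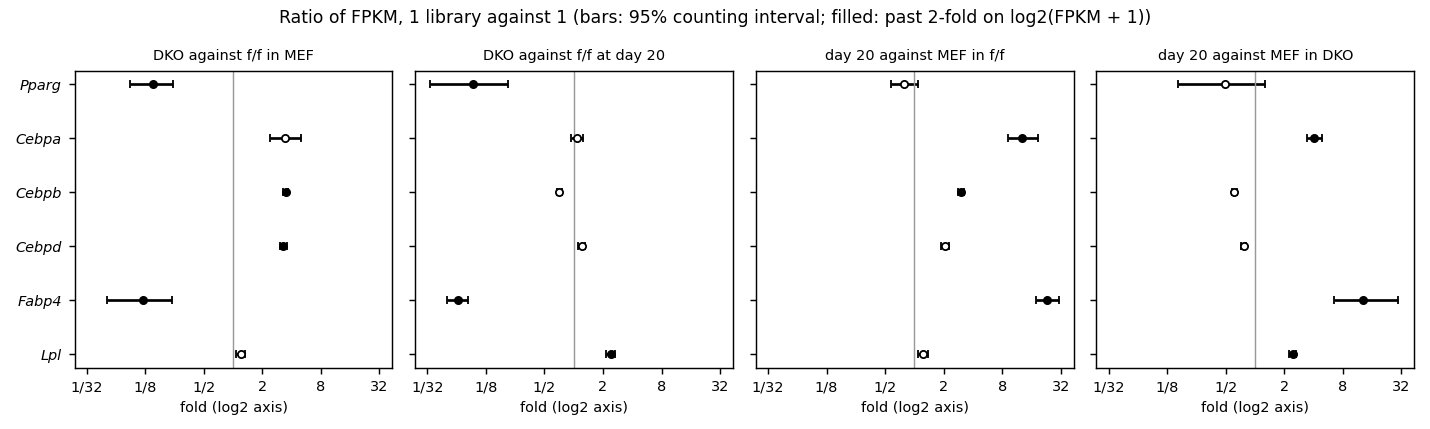
Ratio of FPKM (horizontal axis, log2 scale) for the 6 genes above the detection limit in 4 comparisons of 1 library with 1 library, with bars for the 95% counting interval and filled circles where the difference passed 2-fold on log2(FPKM + 1). Pparg and Fabp4 lie left of 1 in both genotype comparisons, and Fabp4 lies furthest right in day 20 against MEF (23.3-fold in f/f, 12.9-fold in DKO).

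From MEF to day 20, Fabp4 and Cebpa were higher in both genotypes. In f/f cells Fabp4 went from 3.13 to 73.0 FPKM, 23.3-fold higher (17.9 to 30.9), which was the 26th highest of 12836 genes. Between the libraries labelled DKO it went from 0.367 to 4.73 FPKM, 12.9-fold higher (6.42 to 29.3). The intervals of the 2 folds overlapped, while the level was lower in the library labelled DKO at both stages. Cebpa went from 0.485 to 6.24 FPKM in f/f cells (12.9-fold higher, 9.19 to 18.5) and from 1.66 to 6.78 FPKM in DKO (4.08-fold higher, 3.40 to 4.90), and reached like levels from different starts.

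Pparg itself was not higher at day 20. In f/f cells it was 1.27-fold lower than in MEF with an interval of 0.923 to 1.75 that includes 1. In the libraries labelled DKO it had 20 and 6 reads, 2.04-fold lower (0.790 to 6.21). Fabp4 was thus higher at day 20 at a level of Pparg that was not.

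Cebpb and Cebpd moved in opposite directions in the 2 genotypes. In f/f cells Cebpb was 2.98-fold higher at day 20 (2.78 to 3.20) and Cebpd 2.06-fold higher (1.88 to 2.27). In DKO, where both had been high in MEF, Cebpb was 1.64-fold lower (1.55 to 1.73) and Cebpd 1.31-fold lower (1.23 to 1.40). Lpl was 1.23-fold higher in f/f (1.10 to 1.38) and 2.44-fold higher in DKO (2.24 to 2.65).

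On the log2 scale 3 of 6 genes were at least 2-fold higher in f/f cells (Fabp4 4.16, Cebpa 2.29, Cebpb 1.54) and none lower, with Cebpd just outside at 0.98. Of 12836 genes 7.83% were higher and 5.77% lower. In DKO 3 of 5 genes were at least 2-fold higher (Fabp4 2.07, Cebpa 1.55, Lpl 1.16) and none lower, against 4.63% higher and 3.88% lower of 12192 genes. Fabp4 passed 1 FPKM in DKO only through day 20, and Cebpa in f/f cells only through day 20. The 4 comparisons share libraries in pairs.

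The rest of the adipogenic program was read from lists of genes with textbook roles. A listed gene was compared where it reached 1 FPKM in either library. A gene that reached it only in the library where it was high therefore had to differ. Such genes are counted or named beside the counts of the lists. Over all genes, 3.97% were at least 2-fold higher and 5.67% lower in the library labelled DKO in MEF, and 8.51% higher and 12.2% lower at day 20. Of 15 markers of mature adipocytes, 2 reached 1 FPKM in the f/f libraries (Plin4, a droplet protein, and Lipe, hormone-sensitive lipase) and 0 in those labelled DKO. The summed level of the list was 5.14 and 4.91 FPKM in f/f MEF and f/f day 20 and 1.46 and 2.34 FPKM in those labelled DKO. The adipokine gene Lep was at 0 in all 4, and Plin1, which coats the lipid droplet of fat cells, was at 0.111 FPKM or less. The high Fabp4 of f/f cells at day 20 thus stood beside Adipoq, Cd36, Plin1 and Lep at or near 0.

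Known PPAR targets outside the 8 genes were lower in the library labelled DKO where they passed 2-fold. At day 20, 4 of 11 measured targets were at least 2-fold lower and 0 higher, with a median of -0.43 for the list on the log2 scale against 0.03 for all genes. Of these 4, 2 (Angptl4 and Plin4) reached 1 FPKM only in the f/f library, so the count and the median depend in part on the difference itself. Angptl4, an inhibitor of lipoprotein lipase, stood at 16.5 FPKM in f/f cells and 0.112 in the library labelled DKO, and Cpt1a, which brings fatty acids into mitochondria, at 34.5 and 12.9. Plin4 stood at 1.60 and 0.104, and Plin2, a droplet coat protein of many cell types, at 37.6 and 16.8. Angptl4 followed Fabp4 also from MEF (0.291 FPKM) to day 20 in f/f cells. Between the libraries labelled DKO it did not follow Fabp4, at 0.110 FPKM in MEF and 0.112 at day 20. In MEF 2 of 10 targets were lower (Plin4 at 0.0999 against 3.38 FPKM, and Pdk4, a brake on pyruvate oxidation, at 1.73 against 6.54) and 0 higher, with a median of -0.67 against 0.04 for all genes; Plin4 again reached 1 FPKM only in the f/f library.

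Genes of lipid synthesis did not share one direction. Of 21 measured genes of synthesis, storage and lipolysis at day 20, 4 were at least 2-fold higher in the library labelled DKO and 5 lower. Of the 5, 2 (1 of them Mgll) reached 1 FPKM only in the f/f library. Scd1, the stearoyl-CoA desaturase, stood at 118 FPKM against 14.0 in f/f cells, and Fasn, fatty acid synthase, at 84.3 against 31.9. Mgll, which cleaves monoglycerides, stood at 0.0461 against 4.13 FPKM, and Bscl2, the droplet assembly protein seipin, at 3.81 against 12.1. In MEF, 1 of 20 was higher (Fasn at 140.3 against 54.4 FPKM) and 2 lower (Plin4 and Bscl2). Plin4 reached 1 FPKM only in the f/f library.

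In lipid uptake and binding at day 20, 4 of 13 genes were at least 2-fold higher in the library labelled DKO and 3 lower. Of the 3, 1 (Angptl4) reached 1 FPKM only in the f/f library. The lipoprotein receptors Scarb1 (56.3 against 14.1 FPKM) and Vldlr (30.5 against 7.66) and the caveolar protein Cav1 (354 against 77.6) were higher there, as Lpl was. Angptl4 was the lowest of the list. In MEF, Lipg, an endothelial lipase, was at least 2-fold lower (0.642 against 3.10 FPKM) and reached 1 FPKM only in the f/f library. Fabp5, a close relative of Fabp4, stood at 93.3 FPKM in f/f and 124 in DKO at day 20, so it did not follow Fabp4 between genotypes there. In MEF it stood at 43.9 FPKM in f/f and 27.8 in the library labelled DKO. From MEF to day 20 it was thus higher in both genotypes, as Fabp4 was. Reads of Fabp5 may be shared with near-identical copies, so its level is uncertain.

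Regulators around Pparg were mixed. Of 17 measured activators of adipogenesis at day 20, 4 were at least 2-fold higher in the library labelled DKO and 3 lower. Klf5 stood at 31.2 FPKM against 3.15, Egr2 at 7.88 against 0.580 and Ebf1 at 6.37 against 2.18, while Prdm16, a regulator of brown fat, stood at 0.119 against 3.13, Zfp423, which commits cells to the preadipocyte state, at 0.0348 against 1.10, and Klf4, one of the delivered factors, at 8.38 against 17.9. Egr2 reached 1 FPKM only in the library labelled DKO, and Prdm16 and Zfp423 only in the f/f library. In MEF Klf5 was the 1 of 14 activators past 2-fold (9.59 against 3.37 FPKM).

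Genes that hold back adipogenesis were also mixed. In MEF 3 of 20 were at least 2-fold higher in the library labelled DKO and 8 lower. Of the 3, 1 reached 1 FPKM only in the library labelled DKO. Of the 8, 1 (Wnt10b) reached it only in the f/f library. Foxc2 stood at 1.03 FPKM against 11.8 in f/f, Wnt10b at 0.493 against 7.86, and Dlk1, the preadipocyte factor Pref-1, at 2.38 against 13.0, while the Notch target Hes1 stood at 118 against 35.3. At day 20, 6 of 20 were higher and 3 lower. Of the 6, 2 (1 of them Gata3) reached 1 FPKM only in the library labelled DKO. Of the 3, 2 (1 of them Foxc2) reached it only in the f/f library. Ddit3, a C/EBP family member that dimerizes with C/EBPβ, stood at 162 FPKM against 23.7, Runx2 at 25.9 against 5.63, Gata3 at 4.17 against 0.124 and Foxc2 at 0.784 against 7.63. In the C/EBP family of 7 genes, Cebpg was higher in the library labelled DKO at both stages (18.4 against 7.14 FPKM in MEF, 30.5 against 8.94 at day 20).

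**Figure D3:**
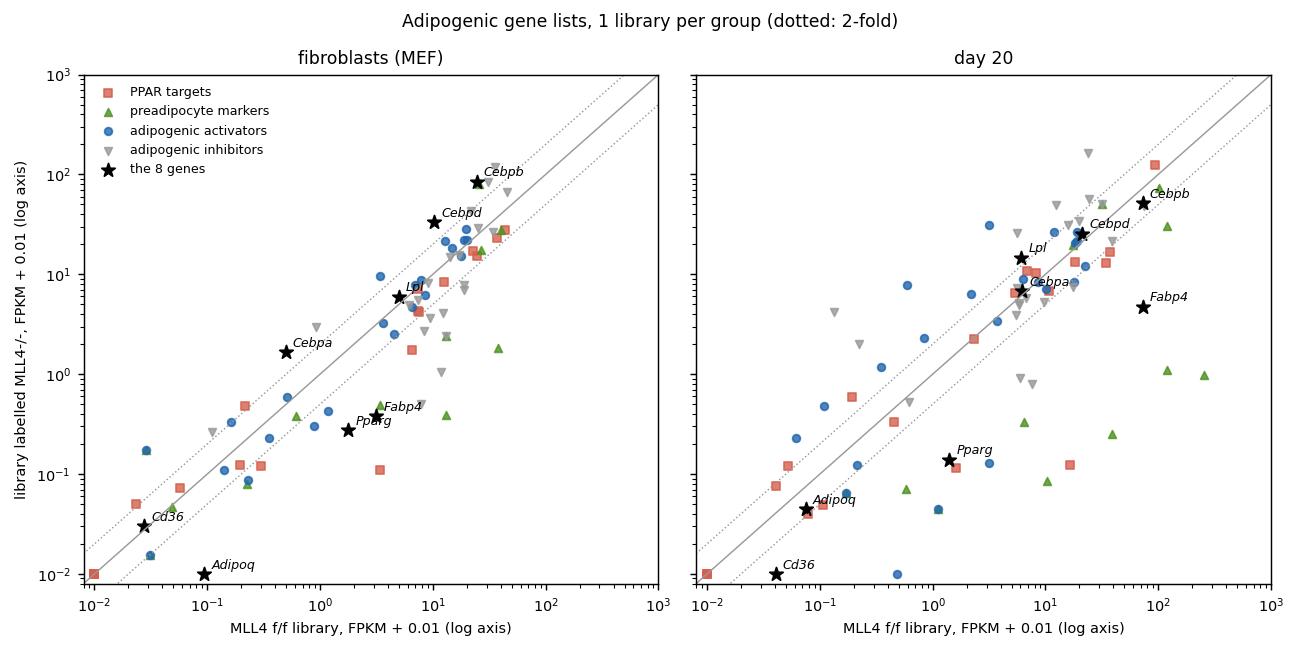
FPKM in the f/f library (horizontal log axis) against the library labelled DKO (vertical log axis) for MEF and day 20, with 0.01 added so that zeros can be drawn; black stars are the 8 genes, other symbols are 4 gene lists, and dotted lines mark 2-fold. At day 20 Fabp4 (73.0 against 4.73) lies below the line with preadipocyte markers such as Ly6a (252 against 0.980), while Cebpa lies on it.

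Several markers of preadipocytes and mesenchymal progenitors were high in f/f cells at day 20, where Fabp4 was highest, and others were not. At day 20, 7 of 10 measured markers were at least 2-fold lower in the library labelled DKO and 0 higher, with a median of -2.23, against 12.2% lower and 8.51% higher of all genes. Of these 7, 5 reached 1 FPKM only in the f/f library, so the count and the median depend on the difference itself. Ly6a (Sca-1) stood at 252 FPKM in f/f cells and 0.980 in the library labelled DKO, Thy1 at 119.7 and 1.08, Cd34 at 38.6 and 0.244, and Pi16 at 10.2 and 0.0761. In f/f cells, 9 of 10 were at least 2-fold higher at day 20 than in MEF and 0 lower, against 7.83% higher and 5.77% lower of all 12836 genes. Of the 9, 3 reached 1 FPKM only at day 20. Thy1 went from 3.37 to 119.7 FPKM. Unlike Fabp4, Dlk1 was highest in the day 20 library labelled DKO, at 50.9 FPKM against 31.8 in f/f cells. In MEF, 4 of 7 were lower in the library labelled DKO (Ly6a at 1.83 against 38.0 FPKM, Cd34 at 0.379 against 13.0) and 1 higher, Cd24a at 79.9 against 25.4. Of all genes in MEF, 5.67% were lower and 3.97% higher. Of the 4 lower markers, 2 reached 1 FPKM only in the f/f library.

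The summed level of these 12 markers was 160.5 and 131 FPKM in f/f MEF and MEF labelled DKO and 699 and 176 FPKM at day 20. Among 20 fibroblast markers, 9 were at least 2-fold lower and 2 higher at day 20 (Lum at 1.75 against 168 FPKM), and 7 lower and 0 higher in MEF (Lum at 2.00 against 52.7). Of all genes, 12.2% were lower and 8.51% higher at day 20, and 5.67% and 3.97% in MEF. Of the 7 markers lower in MEF, 1 reached 1 FPKM only in the f/f library. The part of these markers in the difference of Fabp4 and Pparg was not tested. Fabp4 is also made by endothelial cells and macrophages; the endothelial gene Cdh5 was at 0 in all 4 libraries and Pecam1 at 0.0600 FPKM or less, and the blood cell gene Ptprc was at 0.0282 FPKM or less. Some other markers of these cells were higher in f/f cells at day 20 than in the library labelled DKO, as Fabp4 was. The endothelial receptor Tek stood at 2.65 against 0.0727 FPKM (0.176 in f/f MEF). The blood cell genes Laptm5 and Lyz2 stood at 1.57 against 0.0534 and 1.48 against 0.606. The blood cell genes Cd68 and Cd14 went the other way, at 1.67 against 4.49 and 1.35 against 1.75. The endothelial gene Egfl7 stood at 1.89 and 8.71 FPKM in f/f MEF and MEF labelled DKO and at 5.02 and 5.62 at day 20. The part of these markers in the level of Fabp4 was not tested. The 10 endothelial markers summed to 3.20 to 8.86 FPKM, and the 12 macrophage markers to 5.45 to 7.18.

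In ESC and embryoid bodies Pparg, Cd36 and Adipoq were below 1 in every library, Cebpb lay between 7.15 and 26.7, and no difference between groups passed the test for any of the 5 genes tested. Levels of the first batch (RPKM) and the second (FPKM) were counted differently and are given in that order. Pparg lay at 0.140 or less in all 8 libraries, with 6 reads at most, and Adipoq at 0.175 or less, with 5 reads at most. For Cd36 the f/f libraries gave 0.491 and 0.0708 in ESC and 0.257 and 0.0896 in bodies, and the DKO libraries 0.744 and 0.130 in ESC and 0.183 and 0.0757 in bodies. These 3 genes had a mean below 1 and were not tested.

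The remaining 5 genes were tested with limma on log2(value + 1), with batch in the model, and p adjusted over all 12466 genes tested. Between genotypes in ESC 0 of 5 were called at an adjusted p under 0.05, where 4.24% of all genes were called. In bodies 0 of 5 were called, against 4.44% of all genes. Between bodies and ESC 0 of 5 were called in f/f cells, against 12.0%, and 0 of 5 in DKO, against 0.826%. For the genotype effect by stage 0 of 5 were called, and 0 of all genes (0%). At an unadjusted p under 0.05 the counts over these 5 comparisons were 1, 1, 0, 1 and 0, and edgeR and DESeq2 on reads called 0 members in each.

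Cebpa came nearest, and its level was alike in both batches. In ESC the f/f libraries gave 1.03 and 0.931 and the DKO libraries 2.17 and 2.16, so the DKO libraries were higher in both batches and did not overlap with f/f. The log2 difference was 0.68 ± 0.17 (SE; n = 2 per group), with a limma p of 0.00708 and an adjusted p of 0.0871. With the batch fitted within each stage the adjusted p was 0.0488. In bodies the f/f libraries gave 0.812 and 1.17 and the DKO libraries 1.16 and 1.21 (0.14 ± 0.17, limma adjusted p 0.681). The difference of these genotype effects was -0.54 ± 0.24 (limma adjusted p 0.409), so that the effect was not shown to differ between ESC and bodies.

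Cebpd was lower in DKO in every batch without passing the test. The f/f libraries gave 2.71 and 3.43 in ESC and 2.94 and 1.60 in bodies, and the DKO libraries 2.29 and 1.71 in ESC and 1.47 and 0.789 in bodies. In bodies the log2 difference was -0.61 ± 0.24 (limma adjusted p 0.217) and in ESC -0.44 ± 0.24 (limma adjusted p 0.341). Its direction was thus the reverse of that in MEF, where Cebpd was 3.26-fold higher in the library labelled DKO; the 2 differences were not tested against each other.

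Fabp4, Lpl and Cebpb did not give the same direction in both batches of ESC. For Fabp4 in ESC the f/f libraries gave 0.0847 and 4.12 and the DKO libraries 0.395 and 0.652, which is 1 and 57 reads against 5 and 9. The first batch therefore gave a log2 difference of 0.36 and the second -1.63, and the fitted value was -0.63 ± 0.46 (limma adjusted p 0.481). In bodies the f/f libraries gave 0.0836 and 0.686 and the DKO libraries 0.135 and 1.85 (0.41 ± 0.46, limma adjusted p 0.650). The 57 reads of f/f ESC came from 1 library, whose summed fibroblast markers stood at 1407 FPKM beside 1264 in DKO ESC of the same batch, and at 365 and 401 RPKM in the first batch. Macrophage markers summed to 61.9 and 144 FPKM in the f/f and DKO ESC of that batch. Their part in the level of Fabp4 was not tested.

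Lpl was present at every stage. The f/f libraries gave 1.88 and 5.43 in ESC and 3.67 and 4.93 in bodies, and the DKO libraries 3.65 and 3.70 in ESC and 3.54 and 6.04 in bodies. None of its fitted differences passed the test, with log2 differences of 0.12 ± 0.27 between genotypes in ESC and 0.10 ± 0.27 in bodies (limma adjusted p 0.838 and 0.864). For Cebpb the f/f libraries gave 7.15 and 26.7 in ESC and 10.0 and 18.8 in bodies, and the DKO libraries 12.5 and 23.2 in ESC and 11.8 and 14.8 in bodies. Its genotype differences were 0.27 ± 0.31 in ESC and -0.05 ± 0.31 in bodies (limma adjusted p 0.672 and 0.940), with 95% intervals of -0.49 to 1.03 and -0.82 to 0.71 that do not show the groups to be alike.

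**Figure D4:**
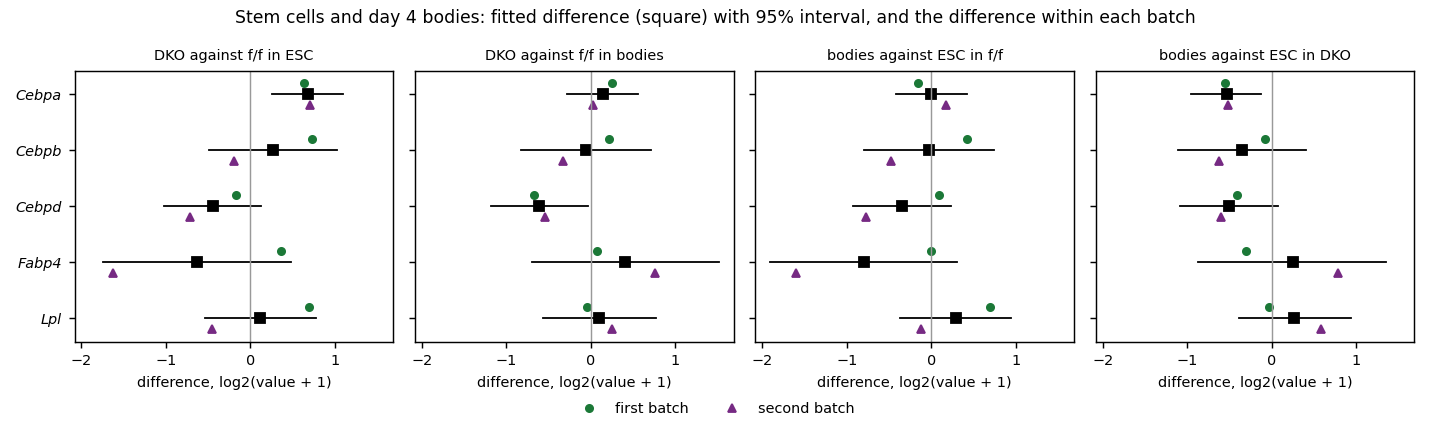
Difference in log2(value + 1) (horizontal axis) for the 5 tested genes in 4 comparisons of ESC and embryoid bodies, with the limma estimate as a square, its 95% interval as a line, and the difference within the first and second batch as a circle and a triangle. For Cebpa in ESC both batches lie close together (0.64 and 0.71), and for Fabp4 they lie on either side of 0 (0.36 and -1.63).

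Other regulators of the program did pass the test between genotypes in ESC. Over all genes tested 1.57% rose and 2.67% fell. Among activators 2 of 15 rose and 0 fell: Zfp423 by 1.61 ± 0.15 on the log2 scale (limma adjusted p 0.0116; 4.39 and 5.55 in f/f, 17.2 and 17.2 in DKO) and Egr2 by 1.65 ± 0.27 (limma adjusted p 0.0337; 8.79 and 3.72 in f/f, 26.2 and 15.6 in DKO). Among inhibitors 2 of 15 rose: Gata2, which represses Pparg, by 1.75 ± 0.33 (limma adjusted p 0.0430) and Twist1 by 1.34 ± 0.27 (limma adjusted p 0.0495). Activators and inhibitors of adipogenesis thus rose side by side in DKO ESC while Pparg stayed at 0.117 FPKM or less. Over all genes, leaving out any 1 of the 4 ESC libraries left 0 to 9 calls in place of 529.

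Lipid genes passed the test in small numbers, where in bodies 0.826% of all genes rose and 3.61% fell. Of 21 measured genes of lipid synthesis and storage, 2 rose and 1 fell between genotypes in ESC, and 0 rose and 2 fell in bodies. Of 15 measured genes of lipid uptake and binding, 1 rose and 2 fell in ESC, and 0 rose and 1 fell in bodies: the fatty acid transporter gene Slc27a2 fell by 1.12 ± 0.18 in ESC (limma adjusted p 0.0312) and by 0.91 ± 0.18 in bodies (limma adjusted p 0.0493). Between genotypes in ESC, Dgat2, which makes triglycerides, rose by 1.56 ± 0.24 (limma adjusted p 0.0272), and the droplet protein Plin3 fell by 0.96 ± 0.10 (limma adjusted p 0.0116). In bodies Plin2 fell by 1.13 ± 0.15 (limma adjusted p 0.0176), from 29.1 and 41.0 in f/f to 10.6 and 21.8 in DKO, and was 1 of 12 PPAR targets called. In f/f cells Plin2 rose from ESC to bodies by 1.17 ± 0.15 (limma adjusted p 0.0154), from 10.4 and 20.7. Ddit3 rose in DKO bodies by 1.55 ± 0.25 (limma adjusted p 0.0280), from 14.4 and 17.0 to 44.5 and 51.5; it was also higher in the libraries labelled DKO of MEF (67.3 against 45.8 FPKM) and day 20. Over all genes, leaving out any 1 of the 4 body libraries left 0 to 799 calls between genotypes in bodies in place of 553.

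From ESC to bodies the same list of activators was described by stage, where 8.13% of all genes rose and 3.86% fell in f/f cells, and 0.201% rose and 0.626% fell in DKO. In f/f cells 3 of 15 fell (Klf4 by 3.72 ± 0.56, Klf5 by 2.24 ± 0.31, Egr2 by 2.09 ± 0.27) and 2 rose, Rxra, the partner of PPARγ, by 0.94 ± 0.13 and Stat5b by 0.74 ± 0.17, with limma adjusted p between 0.0159 and 0.0404. In DKO 3 of 15 fell (Egr2 by 3.69 ± 0.27, Klf5 by 2.16 ± 0.31, Zfp423 by 1.08 ± 0.15; limma adjusted p between 0.0173 and 0.0490) and 0 rose. Among inhibitors in f/f cells Klf2 fell by 3.41 ± 0.52 and Sirt1 by 1.09 ± 0.12, and Wnt5b rose by 1.26 ± 0.20 and Zfp521 by 0.91 ± 0.22, with limma adjusted p between 0.0135 and 0.0479. In DKO Sirt1 fell by 0.84 ± 0.12 (limma adjusted p 0.0477). Over all genes, leaving out any 1 of the 4 f/f libraries left 0 to 3 calls in place of 1495, and leaving out any 1 of the 4 DKO libraries left 0 to 111 in place of 103.

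Genes with patterns most like each of the 8 were sought by Pearson correlation of log2(FPKM + 1) over the 8 FPKM libraries, among 10686 or 10687 other genes that reached 5 FPKM; these libraries share pairs of genotype and stage, and the values are a description. Nearest to Pparg were Glt8d2 (r = 0.996), Foxc2 (0.992) and Itih2 (0.986), each high in f/f MEF and f/f day 20 and low in the other 6 libraries. Foxc2, a forkhead factor, is also in the list of adipogenic inhibitors. Nearest to Fabp4 were Mamdc2 (0.954), the kinase Akt2 (0.950) and Gsdmd (0.944), and Akt2 stood at 52.9 FPKM in f/f day 20 against 25.9 in the library labelled DKO. Nearest to Cebpd was the laminin chain Lama4 (0.990), at 118 FPKM in MEF labelled DKO and 26.5 in f/f MEF, followed by Rictor and Fibin (both 0.986). Nearest to Cebpb was Rasl11b (0.971), to Cebpa Chic2 (0.968) and to Lpl E4f1 (0.960), whose patterns span smaller ranges.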

How the data were processed

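RNA was measured in 12 of the 36 samples of the series; the chromatin samples were not analysed here. Per the file headers, the authors deposited, for each RefSeq transcript of the first batch, its read count and RPKM (replicate 1 of ESC and bodies), and for each Entrez gene of the second batch its FPKM (replicate 2, and all MEF and day 20 libraries). The submitters' processing notes name mm9, bedtools 2.16, SICER 1.1 and CASAVA 1.8.2. The aligner is not given in the sources used here; neither is the annotation or the treatment of shared reads.

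The 8 genes and the lists were chosen with earlier results of these data known. Results of some listed genes are not reported here. Transcripts were joined to genes by accession through a RefSeq table of GRCm38.p6 (28436 of 29082 matched), and a gene took the value of its most read transcript. Reads behind deposited FPKM values were recovered from the steps of low genes, of which 90.5% to 92.2% per library came out whole within 0.02 reads. The 8 ESC and body libraries were fitted with limma 3.58.1 (R 4.3.3; empirical Bayes with trend, two-sided) on log2(value + 1), with groups and batch, over 12466 genes with a mean of at least 1, with Benjamini-Hochberg adjustment and a threshold of 0.05. Libraries of the same batch deviated together, with correlations of 0.864 to 0.954 between groups, which is why batch is the replicate block; that pairing rests on the labels' suffix for replicate 2. MEF and day 20 were compared as 1 library against 1 among genes with at least 1 FPKM in either, past 2-fold where log2(FPKM + 1) differed by at least 1. Intervals are exact Poisson for a level and exact (Clopper-Pearson) for a ratio of reads, at 95%, and cover counting error only. The fits and the fold rule were tested on simulated counts, with large changes placed only in genes with many reads. The spread of those counts was set rather than estimated from the libraries. Recovery of changes in genes with few reads, such as Pparg, was therefore not tested.

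Named were the 8 genes, up to 4 genes per list with the largest difference in each MEF or day 20 comparison, in the fits the called activators and inhibitors and up to 4 called genes of other lists, and 3 genes of like pattern per member. Lep, Plin1, Lipe, Cdh5, Pecam1 and Ptprc were named as defining markers, after their values were seen. Alternatives were edgeR 4.0.16 and DESeq2 1.42.0 on deposited counts and recovered reads, other pseudocounts, filters, scalings and blocks, summed transcripts, and each library left out.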

Additional observations from a re-analysis of the deposited data

Results flagged for a closer look

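Cebpb differed between genotypes in opposite directions at the 2 fibroblast stages, with a difference of log2(FPKM + 1) of 1.75 in MEF (DKO as labelled higher) and -0.49 at day 20 (DKO as labelled lower). Read by stage, the same 4 libraries gave 1.54 from MEF to day 20 in f/f cells and -0.70 in DKO. Cebpd went from MEF to day 20 by 0.98 in f/f cells and by -0.38 in DKO. The counting intervals of these ratios exclude 1 in each case, but with 1 library per group the difference between stages or genotypes was not tested.

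Cd36 was higher in DKO than in f/f ESC in both batches and lower in DKO than in f/f bodies in both, with mean differences of log2(value + 1) of 0.15 and -0.05. Its second-batch reads were 6 and 11 in ESC and 4 and 4 in bodies, and this difference between stages was not tested because Cd36 lay below the level for testing.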

How the results depend on the processing

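Among ESC and bodies, 89 of 90 alternative counts of members called were 0, as in the reported fits. The exception was the genotype comparison in ESC with a replicate block within each stage, where 1 member, Cebpa, was called (log2 difference 0.68, adjusted p 0.0488; range of adjusted p over all alternatives 0.0488 to 0.344). With no replicate block the count was 0 in each comparison, and leaving out each library gave 0 to 0. Over all genes the number of calls moved far more: from 529 to between 0 and 1511 in ESC, from 553 to between 0 and 1524 in bodies, from 1495 to between 0 and 2744 for stage in f/f cells, from 103 to between 0 and 937 for stage in DKO, and from 0 to at most 441 for genotype by stage.

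In MEF, 4 members were past 2-fold between genotypes, and 2 with a pseudocount of 5 or among genes with at least 5 FPKM. At day 20 the 3 members became 1 with a pseudocount of 5, and the 3 for day 20 against MEF in DKO became 0. A pseudocount of 5 shrinks differences of low genes by its construction. No member that passed 2-fold changed direction under any alternative run. Depth limits Cd36 and Adipoq, at or under 3 reads in MEF and day 20, and Pparg in the libraries labelled DKO; the single libraries of MEF and day 20 could not be left out.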

Other observations

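Zfp423, Thy1 and Dlk1, markers of preadipocytes, were read at each stage. Zfp423 stood at 4.39 to 17.2 in the 8 ESC and body libraries and at 1.10 FPKM or less in MEF and day 20, and was highest in DKO ESC. Thy1 fell between genotypes in bodies by 1.02 ± 0.16 (limma adjusted p 0.0255), from 16.7 and 20.1 in f/f to 8.19 and 8.86 in DKO, and at day 20 stood at 119.7 FPKM in f/f cells and 1.08 in the library labelled DKO. Dlk1 stood at 31.8 FPKM in f/f and 50.9 in DKO at day 20, and at 13.0 and 2.38 in MEF.

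Among adipokines and their receptors at day 20, 2 of 7 measured genes were at least 2-fold higher in the library labelled DKO and 2 lower, against 8.51% and 12.2% of all genes. Of the 2 lower genes, 1 reached 1 FPKM only in the f/f library. Rarres2, which encodes chemerin, stood at 0.0603 FPKM against 5.31 in f/f cells, and Cdh13, a receptor of adiponectin, at 3.92 against 22.7. Apln stood at 18.4 against 5.28 FPKM and Nampt at 24.9 against 11.3.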
